A study of Mus musculus with 4 samples.

Results

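Threonine and glycine breakdown in mouse blastocysts was described through 7 genes, Tdh, Gcat, Gldc, Amt, Gcsh, Dld and Mat2a, chosen by name and matched to rows with exactly that symbol. They were chosen with earlier results of these data known. All 7 were among the 23235 gene symbols of the deposited tables, and all 7 were among the 11039 genes that averaged at least 1 FPKM over the 4 libraries and were tested. FPKM are fragments scaled to transcript length and to the mapped total of the library, a unit inferred here. The embryos were made by putting a somatic nucleus into an enucleated oocyte, known as somatic cell nuclear transfer (SCNT), or by in vitro fertilization (IVF). Each group had 2 libraries of 6 pooled early blastocysts, lysed 96 hours after activation (SCNT) or fertilization (IVF). The SCNT donors were embryonic fibroblasts heterozygous for an Xist knockout, from 129S1/SvImj mothers and CAST/EiJ fathers, and the recipient oocytes came from B6D2F1/J mice. The IVF embryos came from Xist KO oocytes on a 129S1/Svj background and wild-type CAST/EiJ sperm. Both groups thus had a 129S1 and CAST/EiJ nuclear background and an Xist knockout allele, while the oocytes came from different strains, so that oocyte strain and SCNT cannot be told apart. The headers of the SCNT libraries also carry the name kdm4d, a histone demethylase gene, and any such treatment is not described in the sources used here. A treatment of the SCNT group alone could not be told apart from SCNT either.

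Threonine dehydrogenase, encoded by Tdh, oxidizes threonine in mitochondria, and the ligase encoded by Gcat splits the product into glycine and acetyl-CoA. The glycine cleavage system then breaks glycine down and passes a methylene group to tetrahydrofolate. It has 4 proteins, the P protein (Gldc, a decarboxylase), the T protein (Amt, an aminomethyltransferase), the H protein (Gcsh, the lipoylated carrier) and the L protein (Dld, dihydrolipoamide dehydrogenase, which also serves other dehydrogenase complexes). Mat2a encodes the catalytic subunit that makes S-adenosylmethionine, the methyl donor to which folate carbon can contribute. Mouse embryonic stem cells and the inner cell mass are known for high Tdh activity and for depending on threonine.

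In both SCNT libraries Tdh was above, and Gldc below, its values in either IVF library, each by a little under 2-fold in group means, but neither passed the test over all genes. The H protein gene Gcsh and Mat2a were also lower in both SCNT libraries, by less. Gcat, Dld and Amt overlapped between the groups. With limma on log2(FPKM + 1), 0 of the 7 members had an adjusted p under 0.05, where 0.127% of all genes tested did. At an unadjusted p under 0.05 there was 1 higher gene (Tdh), where 4.25% of tested genes were higher, and 1 lower gene (Gldc), where 2.84% were lower. Groups that did not overlap were found for 1 of the 7 genes in the higher direction and 3 in the lower, against 18.3% and 15.1% of all tested genes. Since the 7 genes were chosen with earlier results of these data known, these counts are no test against those shares. The median difference of the 7 genes was -0.16, against 0.01 over all tested genes. With 2 libraries against 2, the exact permutation test of a single gene cannot give a p below 0.333. The labels do not state whether libraries of a group had separate parents or days, so p-values reflect only how these libraries vary, which may be technical.

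**Figure D1:**
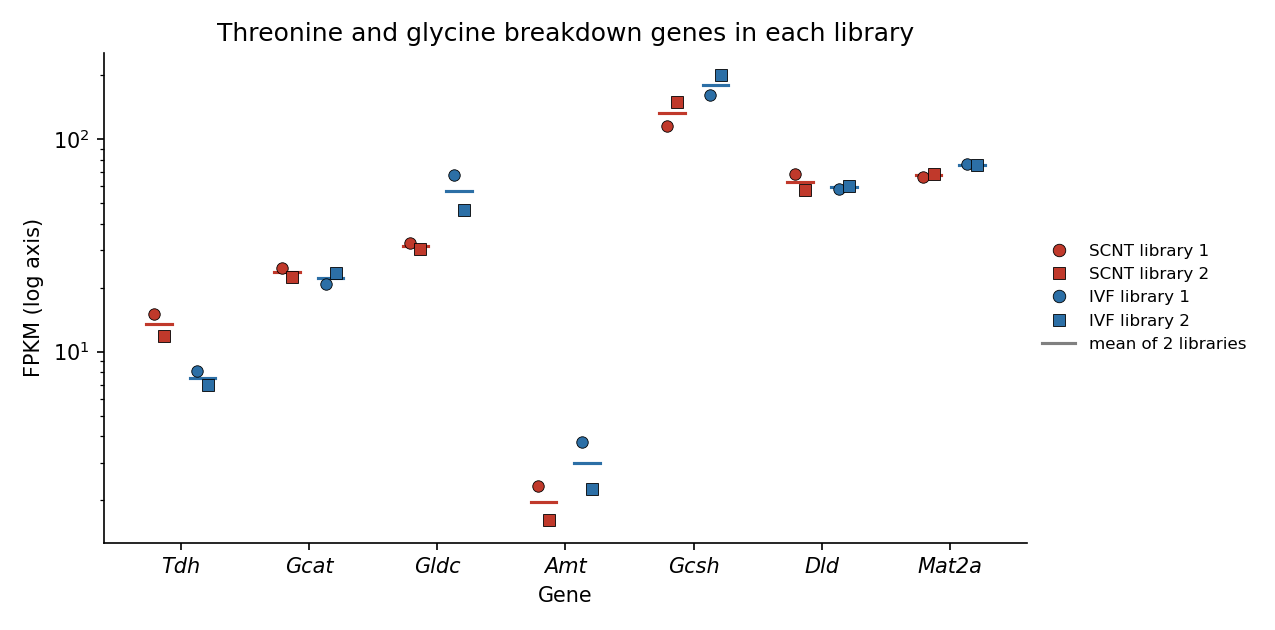
FPKM (log axis) of the 7 genes in each library, with SCNT in red left of IVF in blue, circles for libraries numbered 1, squares for those numbered 2 and bars at the mean of the 2 libraries. Tdh is higher in both SCNT libraries, Gldc, Gcsh and Mat2a are lower in both, and Gcat, Amt and Dld overlap.

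The 4 libraries were alike in overall size. FPKM summed to between 933167 and 985197 per library, and between 10802 and 10923 symbols reached 1 FPKM. The number of symbols listed at exactly 0 ran from 5212 to 6527 and was higher in both libraries numbered 1 than in both numbered 2. Short RNA genes held 10.2% and 10.1% of the summed FPKM in SCNT libraries 1 and 2, against 13.6% and 12.7% in IVF libraries 1 and 2. Xist, knocked out on an allele in both groups, was listed at 4.13 and 3.33 FPKM in SCNT, against 1.09 and 13.9 FPKM in IVF, which does not check the genotype. Kdm4d was at 0.0649 and 0.117 FPKM in SCNT and at 0 and 0.0382 FPKM in IVF, which does not show whether a Kdm4d treatment was made. The files hold no counts, so the depth behind each value is unknown.

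The genes differed widely in level per length of transcript. Gcsh was highest, with a mean of 157 FPKM over the 4 libraries, followed by Mat2a with 71.7, Dld with 61.2, Gldc with 44.3, Gcat with 22.9, Tdh with 10.5 and Amt with 2.49 FPKM. The ranges of Mat2a and Dld overlapped, as did those of Dld and Gldc, and in each of these pairs the gene with the higher mean was higher in 3 of 4 libraries. The other neighbours in the order did not overlap. Amt, the T protein of the cleavage system, therefore stood below the other 3 proteins' genes in every library, and Gcsh stood above them in every library. Gcsh exceeded Amt by 49.4 and 93.3 times in SCNT and by 42.9 and 88.8 times in IVF.

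The entry step, threonine dehydrogenase, was the member with higher values in SCNT. Tdh, on chromosome 14, had 15.1 and 11.9 FPKM in SCNT libraries 1 and 2, against 8.08 and 6.95 FPKM in IVF libraries 1 and 2. Both SCNT libraries stood above both IVF libraries. The means were 13.5 ± 2.23 FPKM in SCNT and 7.52 ± 0.796 FPKM in IVF (SD, 2 libraries each), a ratio of 1.79. The log2 difference was 0.76 ± 0.20 (SE), with a 95% interval of 0.25 to 1.27, and its limma adjusted p was 0.489 (unadjusted 0.0121). It was 0.82 between the libraries numbered 1 and 0.70 between those numbered 2.

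Beside Tdh, markers of the cells in which it is known to be high gave no single direction. Of 15 inner cell mass and epiblast markers, all 15 were tested, 8 had higher and 7 lower estimates in SCNT, 3 were higher without overlap and 0 lower without overlap, with a median of 0.05. Their summed level was 7292 and 10610.5 FPKM in SCNT, against 4863 and 8430 FPKM in IVF, most of it from Dppa5a. The core factor genes Pou5f1, Sox2 and Nanog differed by 0.18, -0.07 and -0.12. The 3 higher without overlap were Tdgf1 (0.67), Gdf3 (0.34) and Zfp42 (0.05). Esrrb (0.55), Dppa5a (0.50) and Utf1 (0.45) had higher estimates with overlap. The lowest of the 7 lower estimates was that of Prdm14 (-0.26). In this list 0 had an unadjusted limma p under 0.05. Of 16 trophectoderm markers, 15 were tested, with 13 higher and 2 lower estimates and a median of 0.40. Groups did not overlap for 7, all higher, and 5 were higher at an unadjusted limma p under 0.05. These 5 were Krt19 (2.04), Elf5 (1.63), Eomes (0.95), Cdx2 (0.63) and Krt7 (0.54), none of which passed. The 2 lower were Tfap2c (-0.21) and Tead4 (-0.08). Over all tested genes, 18.3% were higher and 15.1% lower without overlap, and 4.25% were higher at that unadjusted limma p. The 16 trophectoderm markers summed to 6818 and 4612 FPKM in SCNT and 5079 and 4169 FPKM in IVF, most of it from Krt8 and Krt18. Of 12 primitive endoderm markers, 10 were tested, with 5 higher and 5 lower estimates and a median of 0.0016. In that list 4 were higher without overlap and 0 lower without overlap, and 3, Sparc (1.16), Lama1 (0.69) and Gata4 (0.62), had an unadjusted limma p under 0.05 but did not pass. Its 5 lower estimates were those of Gata6 (-0.25), Hnf4a (-0.16), Col4a1 (-0.14), Dab2 (-0.07) and Sox17 (-0.04). The 12 markers summed to 387 and 336 FPKM in SCNT, against 386 and 289 FPKM in IVF. In pooled embryos fewer cells of a type and less RNA per cell cannot be told apart, and the part of cell makeup in the differences of Tdh or of the other members was not tested. Markers of other sources were low. The 13 fibroblast markers summed to 8.54 and 1.45 FPKM in SCNT and 4.16 and 1.79 FPKM in IVF, with 10 under 1 FPKM in every library and Twist2 at 0. The 11 oocyte markers summed to 4.41 and 2.25 FPKM in SCNT, against 6.38 and 3.12 FPKM in IVF. The 10 cumulus and granulosa cell markers summed to between 1.21 and 1.55 FPKM in every library, and Cyp19a1, Amh and Ptx3 were at 0.

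Reads of Tdh could be shared with other loci. In a search of GENCODE mouse transcripts, the processed pseudogene Gm13929 matched 1125 bases of the longest coding Tdh transcript of 1881 bases at 97.1% identity, and the antisense gene Gm17232 overlaps Tdh on the other strand. Neither has a row in the deposited tables, and the sources used here do not give the use of strand or the handling of shared reads. Part of the Tdh values may thus belong to these loci.

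Gcat, which completes the conversion of threonine to glycine, did not follow Tdh. Gcat, on chromosome 15, had 24.8 and 22.5 FPKM in SCNT, against 20.8 and 23.4 FPKM in IVF. The groups overlapped. The log2 difference was 0.09 ± 0.17, with a 95% interval of -0.36 to 0.54 (limma adjusted p = 0.9996). A further GENCODE entry named Gcat overlaps Galr3 on the same strand, and Galr3 has a row, so how shared reads were placed is unknown. Within each library Gcat exceeded Tdh by 1.65 and 1.89 times in SCNT and by 2.58 and 3.37 times in IVF. A ratio of this kind does not depend on how libraries are scaled against each other. The pairs of genes set in ratio here were chosen after their values were seen.

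The glycine cleavage genes other than Dld were lower in SCNT or overlapped. Gldc, the decarboxylase gene on chromosome 19, had 32.5 and 30.5 FPKM in SCNT, against 68.0 and 46.2 FPKM in IVF. Both SCNT libraries stood below both IVF libraries, which lay farther apart from each other than the SCNT libraries did. The means were 31.5 ± 1.42 FPKM in SCNT and 57.1 ± 15.4 FPKM in IVF (SD, 2 libraries each), and the IVF mean was 1.81 times the SCNT mean. The log2 difference was -0.81 ± 0.24 (SE), with a 95% interval of -1.42 to -0.20, and its limma adjusted p was 0.526 (unadjusted 0.0185). It was -1.04 between the libraries numbered 1 and -0.58 between those numbered 2. Without IVF library 1, the highest value, the difference was -0.54. The processed pseudogene Rpl31-ps20 overlaps Gldc on the other strand and has no row in the tables.

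Gcsh, the carrier protein gene on chromosome 8, had 115 and 149.9 FPKM in SCNT, against 161 and 200.2 FPKM in IVF. Both SCNT libraries were lower, but the gap between the groups was narrow beside the spread within each. The means were 132 ± 24.6 FPKM in SCNT and 181 ± 27.6 FPKM in IVF. The log2 difference was -0.45 ± 0.23, with a 95% interval of -1.04 to 0.14 (limma adjusted p = 0.855), and was close to equal between libraries numbered 1 (-0.48) and those numbered 2 (-0.42). It was -0.26 without SCNT library 1 and -0.29 without IVF library 2. The same transcript search found 5 processed pseudogenes that match parts of Gcsh at between 85.7% and 91.3% identity, none with a row in the tables. A Cysltr2 transcript also matched 508 bases at 85.6% identity, and Cysltr2 has a row. The share of Gcsh reads placed at these loci is unknown.

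Amt, the aminomethyltransferase gene on chromosome 9, was the least abundant member, with 2.33 and 1.61 FPKM in SCNT, against 3.76 and 2.25 FPKM in IVF. SCNT library 1 lay above IVF library 2, so the groups overlapped. The log2 difference was -0.42 ± 0.27, with a 95% interval of -1.10 to 0.27 (limma adjusted p = 0.903), -0.52 between libraries numbered 1 and -0.32 between those numbered 2. It was -0.14 without IVF library 1, -0.24 without SCNT library 2, -0.69 without IVF library 2 and -0.20 with a pseudocount of 5, which weighs on a gene this low.

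Dld, the dehydrogenase gene on chromosome 12 that other complexes share, had 68.3 and 57.8 FPKM in SCNT, against 58.2 and 60.4 FPKM in IVF. The SCNT libraries enclosed the IVF libraries. The log2 difference was 0.08 ± 0.18, with a 95% interval of -0.38 to 0.55 (limma adjusted p = 0.9996), and it turned to -0.04 without SCNT library 1. Of 12 genes for the other subunits of Dld-containing dehydrogenase complexes, 10 were tested, 5 with higher and 5 with lower estimates and a median of -0.02. None passed with limma, and 0 had an unadjusted p under 0.05. The example with the smallest p was Ogdhl, with 5.14 and 4.23 FPKM in SCNT, against 9.61 and 5.93 FPKM in IVF (log2 difference -0.60, -0.29 without IVF library 1, -0.91 without IVF library 2 and -0.39 with a pseudocount of 5). Dlat, Bckdhb and Pdhx differed by 0.20, -0.23 and 0.16, and with a library left out they ran from 0.061 to 0.35, from -0.45 to -0.0084 and from 0.074 to 0.25. All 6 genes of the synthesis and attachment of lipoic acid, which the H protein carries, were tested. They had 3 higher and 3 lower estimates and a median of 0.0015. The 4 with the smallest p, Oxsm, Lipt2, Lipt1 and Mecr, differed by 0.13, -0.17, 0.03 and 0.01.

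**Figure D2:**
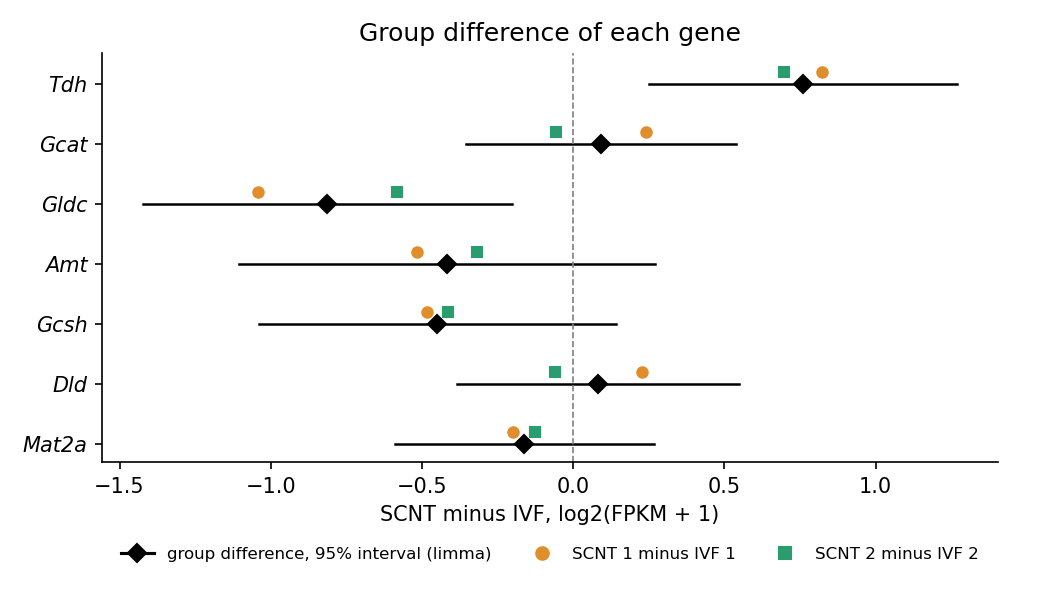
SCNT minus IVF difference in log2(FPKM + 1) for each gene (diamonds, with 95% limma intervals), with the differences within libraries numbered 1 (orange circles) and numbered 2 (green squares). The intervals of Tdh and Gldc lie on opposite sides of 0, and those of the other 5 genes include 0.

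Mat2a, on chromosome 6, had 66.3 and 69.0 FPKM in SCNT, against 76.2 and 75.4 FPKM in IVF. Both SCNT libraries were slightly lower, and the values within each group were close. The means were 67.7 ± 1.86 FPKM in SCNT and 75.8 ± 0.607 FPKM in IVF, and the log2 difference was -0.16 ± 0.17, with a 95% interval of -0.59 to 0.27 (limma adjusted p = 0.9996). The processed pseudogene Gm9523 matches 1065 bases of Mat2a at 94.9% identity, and the transcript Particl overlaps its start on the other strand. Neither has a row in the tables.

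The promoters of the 3 members that were lower without overlap are shown for the sequence around their starts. RefSeq promoter windows of GRCm38.p6, from 250 bases before to 50 bases after the start, were found for 6 genes, all but Tdh. The coordinates are of GRCm38.p6, not of the mm9 build the authors used. The sequences run 5′ to 3′ in the direction of transcription. Capitals mark matches on either strand to the GC box GGGCGG, to CCAAT, to the E-box motif CACGTG and to the TATA box motif TATAAA, none of which overlaps another kind here.

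Gldc promoter, chr19:30175392-30175691, minus strand: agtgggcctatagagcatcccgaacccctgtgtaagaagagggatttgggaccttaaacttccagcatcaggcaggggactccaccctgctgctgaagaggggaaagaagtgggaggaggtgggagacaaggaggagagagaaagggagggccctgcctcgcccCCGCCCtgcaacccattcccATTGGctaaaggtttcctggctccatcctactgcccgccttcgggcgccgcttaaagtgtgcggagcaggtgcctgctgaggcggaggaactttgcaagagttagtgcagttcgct

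Gcsh promoter, chr8:116993449-116993748, minus strand: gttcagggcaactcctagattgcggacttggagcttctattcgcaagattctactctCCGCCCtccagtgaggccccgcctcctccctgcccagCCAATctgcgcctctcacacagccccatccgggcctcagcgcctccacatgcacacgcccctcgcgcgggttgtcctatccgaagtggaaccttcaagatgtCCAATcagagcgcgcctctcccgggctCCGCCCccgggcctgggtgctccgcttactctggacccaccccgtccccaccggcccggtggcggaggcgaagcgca

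Mat2a promoter, chr6:72439507-72439806, minus strand: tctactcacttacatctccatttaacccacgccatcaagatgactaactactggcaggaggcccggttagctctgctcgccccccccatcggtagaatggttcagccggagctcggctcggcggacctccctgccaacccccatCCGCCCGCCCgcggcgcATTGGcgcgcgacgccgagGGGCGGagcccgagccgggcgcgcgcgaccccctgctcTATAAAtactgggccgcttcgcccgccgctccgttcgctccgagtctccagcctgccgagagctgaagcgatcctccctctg

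GGGCGG was found in the windows of Gldc (1 match), Gcsh (2) and Mat2a (3), and in 35.7% of 32851 promoter windows of all genes. CCAAT was found in those of Gldc (1), Gcsh (2) and Mat2a (1), and in 37.4% of all windows. TATAAA was found in Mat2a alone among the 3, and in 13.6% of all windows. CACGTG was in none of the 3, but in that of Gcat, and in 7.15% of all windows. GC content was 59.0% for Gldc, 66.3% for Gcsh and 67.0% for Mat2a, against a median of 52.7% over all windows. CpG dinucleotides numbered 10, 24 and 34, against a median of 7. Among the members that overlapped between the groups, GC content was 61.3% for Gcat, 54.7% for Amt and 47.0% for Dld. Their CpG dinucleotides numbered 21, 7 and 18. GGGCGG was also found in Gcat (1) and Amt (1) but not Dld, and CCAAT in Amt (1) and Dld (2) but not Gcat. Neither motif is thus particular to the 3 lower genes. These matches describe the sequence and say nothing of which factors bind.

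Set against Tdh, Gldc showed the widest separation of the groups among the ratios computed. This follows from the choice of pair, since these 2 genes had the largest differences in opposite directions. Gldc exceeded Tdh by 2.16 and 2.56 times in SCNT, against 8.42 and 6.65 times in IVF. Mat2a exceeded Tdh by 4.41 and 5.80 times in SCNT and by 9.43 and 10.8 times in IVF. All ratios to Tdh share its values, and the exact permutation test cannot go below 0.333 for any of them. Within the cleavage system, the ratio of Gldc to Dld was 0.476 and 0.527 in SCNT and 1.17 and 0.766 in IVF, without overlap. The ratio of Gcsh to Dld was 1.68 and 2.59 in SCNT and 2.77 and 3.31 in IVF, also without overlap. The ratio of Gcsh to Gldc was 3.54 and 4.91 in SCNT and 2.37 and 4.33 in IVF, which overlapped.

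**Figure D3:**
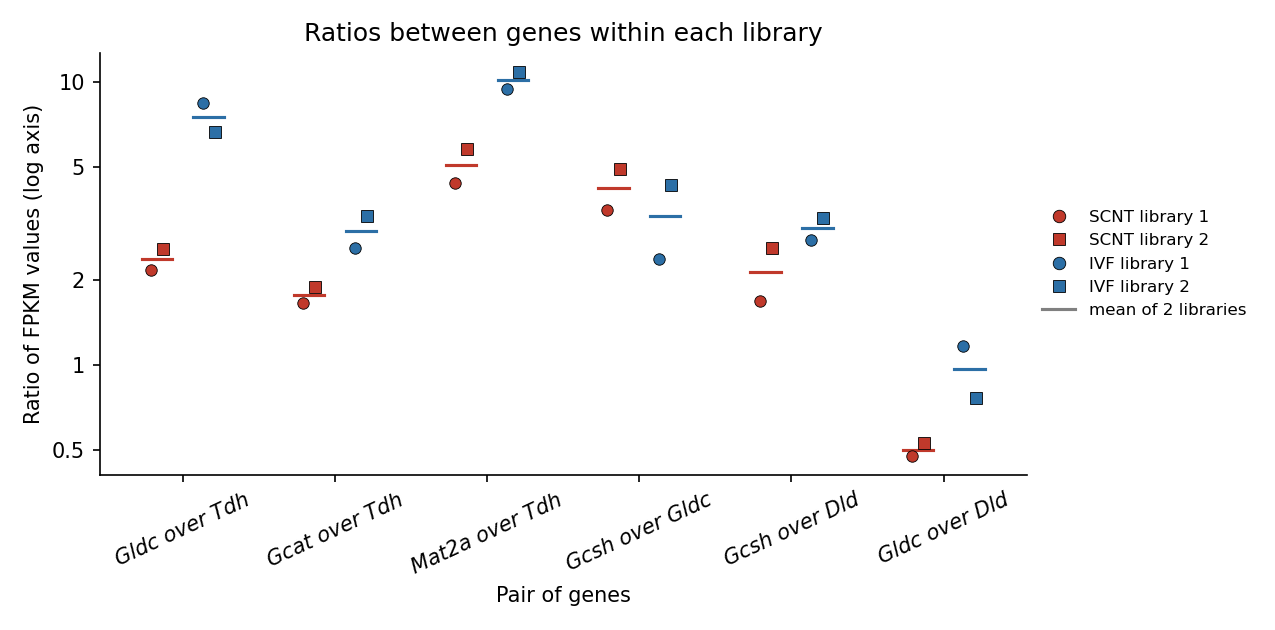
Ratios of FPKM values between pairs of the 7 genes within each library (log axis), with SCNT in red left of IVF in blue, circles for libraries numbered 1, squares for those numbered 2 and bars at the mean. Gldc over Tdh lies between 2.16 and 2.56 in SCNT and between 6.65 and 8.42 in IVF, while Gcsh over Gldc overlaps.

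Genes of the surrounding pathways were described from 9 lists. Of their 117 distinct genes in the tables, 90 were tested. None of the 90 passed with limma, and 10 had an unadjusted p under 0.05, where 7.09% of all tested genes did. Groups did not overlap for 20 higher and 6 lower genes, 22.2% and 6.67% of the 90, against 18.3% and 15.1% of all tested genes. The median difference of the 90 was 0.02. Of the 20 higher genes 7, and of the 10 at the unadjusted limma p 5, came from the transporter list. All 9 lists were chosen with earlier results of these data known. Counts here and for single lists are thus set beside the shares of all genes as description only.

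Bhmt had the smallest p in the list of other glycine, serine and threonine use, followed by Dmgdh, and Bhmt2 had the smallest in the list of the methionine cycle, polyamines and salvage. Bhmt encodes the methyltransferase that remethylates homocysteine from betaine, Dmgdh the mitochondrial enzyme that demethylates the dimethylglycine so formed, and Bhmt2 a methyltransferase that remethylates homocysteine from S-methylmethionine. Bhmt had 148 and 230.1 FPKM in SCNT, against 619 and 456 FPKM in IVF. Its log2 difference was -1.52 ± 0.30 (limma adjusted p = 0.320, unadjusted 0.00376). Bhmt2 had 0.558 and 1.11 FPKM in SCNT, against 5.89 and 5.04 FPKM in IVF. Its log2 difference was -1.83 ± 0.23 (limma adjusted p = 0.165, unadjusted 4.64e-04), -2.63 with a pseudocount of 0.1 and -0.84 with a pseudocount of 5. Its SCNT mean of 0.836 FPKM is under the filter, so that it was tested only through the IVF libraries. Dmgdh had 1.92 and 4.47 FPKM in SCNT, against 8.04 and 6.22 FPKM in IVF. Its log2 difference was -1.02 ± 0.35 (limma adjusted p = 0.602), and it was -0.56 without SCNT library 1 and -0.58 with a pseudocount of 5. For each of the 3 genes both SCNT libraries stood below both IVF libraries, and none passed over all genes. In the GENCODE annotation Bhmt, Bhmt2 and Dmgdh are consecutive protein-coding genes on chromosome 13. Bhmt and Bhmt2 are paralogues, so reads they share are uncertain. These 3 genes are set together after their values were seen. In their lists, 2 of 12 and 1 of 18 tested genes were lower without overlap, where 15.1% of all tested genes were, so neither list is described as lower. In the first list Cbs, which commits homocysteine to cysteine synthesis, differed by 0.38 and Cth, the next enzyme, by -0.43, neither past the threshold. The groups did not overlap for Cbs and overlapped for Cth. Cbs was at 0.22 without IVF library 2, and Cth ran from -0.78 without SCNT library 2 to -0.079 without SCNT library 1 (-0.24 without IVF library 2).

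The methionine cycle list, to which Mat2a leads, had 6 higher and 12 lower estimates among 18 tested genes, and a median of -0.08. Groups did not overlap for 3 higher and 1 lower gene, against 18.3% and 15.1% of all tested genes. Apip, an enzyme of methionine salvage, had 52.9 and 51.9 FPKM in SCNT, against 31.4 and 36.3 FPKM in IVF. Both SCNT libraries were higher (log2 difference 0.62 ± 0.18, limma adjusted p = 0.514). Ahcy, which hydrolyses the product of methyl transfer, had 74.0 and 47.4 FPKM in SCNT, against 117 and 61.3 FPKM in IVF, and the groups overlapped. Its difference of -0.51 was -0.05 without IVF library 1. Odc1, the first enzyme of polyamine synthesis, differed by -0.38, and by -0.03 without IVF library 1.

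Genes for enzymes that make serine, or glycine from serine, another supply of the cleavage system, had differences that did not pass the test. All 5 genes of serine and glycine synthesis were tested, with 4 higher estimates and 1 lower, and a median of 0.16. Of these, 2 (Shmt1 and Psat1) were higher without overlap, where 18.3% of all tested genes were. Shmt1, the cytosolic serine hydroxymethyltransferase gene, had 72.4 and 57.1 FPKM in SCNT, against 55.2 and 45.0 FPKM in IVF. Psat1, of serine synthesis, had 148 and 156 FPKM in SCNT, against 143 and 128 FPKM in IVF. Neither passed the test, and their log2 differences were 0.36 and 0.16. That of Shmt1 was 0.22 without IVF library 2 and 0.19 without SCNT library 1, and that of Psat1 was 0.088 without IVF library 2. Shmt2, the mitochondrial enzyme, differed by 0.22 and Phgdh, the first enzyme of serine synthesis, by -0.07, and both changed sign when a library was left out.

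Folate carbon genes had 12 higher and 5 lower estimates among 17 tested, and a median of 0.10. Without overlap, 5 were higher and 1 lower, against 18.3% and 15.1% of all tested genes. Mthfd2, the mitochondrial methylenetetrahydrofolate dehydrogenase that uses the product of glycine cleavage, had 49.0 and 22.2 FPKM in SCNT, against 17.3 and 12.2 FPKM in IVF. Both SCNT libraries were higher, with SCNT library 1 well above the other (log2 difference 1.13 ± 0.41, limma adjusted p = 0.645), and the difference was 0.58 without SCNT library 1. The folate receptor genes Folr1 and Folr2 differed by 0.54 and 0.49, and Aldh1l1, which oxidizes formyl-tetrahydrofolate, by -0.50. They were at 0.28 for Folr1 without SCNT library 2, 0.17 for Folr2 without IVF library 1, 0.81 for Folr2 without IVF library 2, and for Aldh1l1 at -0.23 without SCNT library 2, -0.27 without IVF library 1 and -0.76 without SCNT library 1. Folr1 had 273 and 393 FPKM in SCNT, against 201 and 252 FPKM in IVF.

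**Figure D4:**
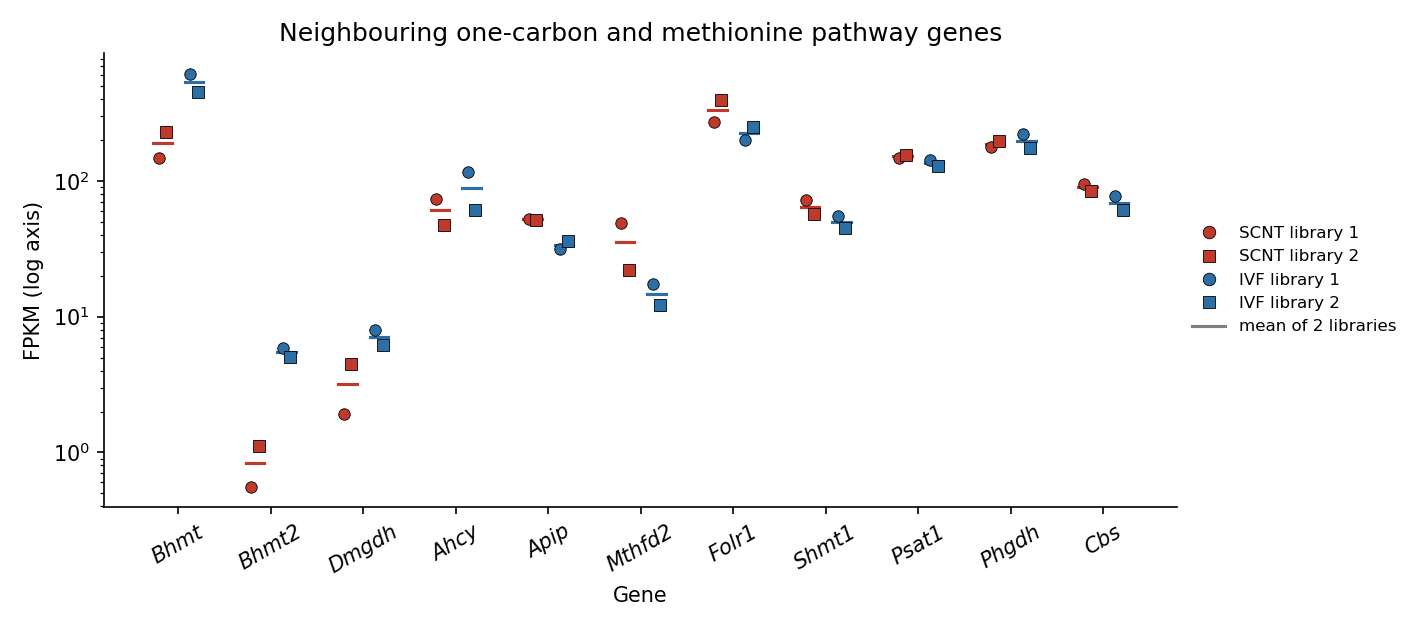
FPKM (log axis) of named genes of homocysteine, methionine, folate and serine metabolism in each library, with SCNT in red left of IVF in blue, circles for libraries numbered 1, squares for those numbered 2 and bars at the mean. Bhmt, Bhmt2 and Dmgdh are lower in both SCNT libraries, Apip, Mthfd2, Folr1, Shmt1, Psat1 and Cbs are higher in both, and Ahcy and Phgdh overlap.

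Transporters that carry threonine or glycine had mostly higher estimates, in a list partly chosen with earlier results of these data known. Of 18 genes, 9 were tested, 8 had higher estimates and 1 lower, and 7 of the 9 were higher without overlap (18.3% of all tested genes), with a median of 0.68. At an unadjusted p under 0.05, 5 of the 9 were higher (4.25% of all tested genes), and 0 passed after adjustment with limma. Slc7a8, a neutral amino acid exchanger gene, had 3.62 and 2.57 FPKM in SCNT, against 0.543 and 0.389 FPKM in IVF. Its log2 difference was 1.47 ± 0.22 (limma adjusted p = 0.224), 2.49 with a pseudocount of 0.1 and 0.56 with a pseudocount of 5. The Slc38 genes in this list were chosen with earlier results of these data known. Of these, Slc38a2 had 9.79 and 4.63 FPKM in SCNT, against 2.37 and 2.30 FPKM in IVF, a log2 difference of 1.22 that was 0.75 without SCNT library 1 and 0.70 with a pseudocount of 5, and Slc38a1 and Slc38a4 differed by 0.85 and 1.17. Of the 18 genes, 7 were under 1 FPKM in every library, and Slc7a8 passed the filter only through the SCNT libraries. Slc7a8 and the named Slc38 genes are among those counted as higher, both without overlap and at the unadjusted limma p. The counts thus rest partly on chosen genes. They do not describe the whole list and cannot be read against the shares of all genes.

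The genes that charge transfer RNA with threonine or glycine, 4 in all, had 3 higher estimates and 1 lower, and none was without overlap between groups. Gars, for glycine, had 115 and 59.2 FPKM in SCNT, against 71.8 and 42.2 FPKM in IVF, and its difference of 0.57 ran from 0.10 to 1.04 with a library left out. The other 3, Tars, Tars2 and Tarsl2, differed by 0.32, 0.12 and -0.06. Of 9 genes of complexes that methylate H3K4, a use of S-adenosylmethionine, 4 had higher and 5 lower estimates, with a median of -0.03. Among them 1 gene was lower without overlap, where 15.1% of all tested genes were. That gene was Ash2l, a core subunit, with 137 and 118 FPKM in SCNT, against 170.2 and 153 FPKM in IVF (log2 difference -0.34, limma adjusted p = 0.884). Wdr5, Dpy30 and Mll2 differed by -0.23, 0.23 and -0.10, and with a library left out they ran from -0.43 to -0.021, from -0.030 to 0.49 and from -0.19 to -0.0086.

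The genes whose values over the 4 libraries were most like those of the 2 members with the largest differences were found by the root mean square difference of log2(FPKM + 1) values after each gene was centred on its own mean. For Tdh these were Ggt1 (0.022), Ppp1r9b (0.025) and Aldh3b2 (0.032). Ggt1, which encodes a gamma-glutamyltransferase that acts on glutathione, averaged 27.8 FPKM in SCNT and 16.1 FPKM in IVF. For Gldc these were Myod1 (0.077), Nkain4 (0.085) and Lmo1 (0.086). Nkain4 and Lmo1 averaged 0.935 and 0.759 FPKM in SCNT, against 2.43 and 1.86 FPKM in IVF. Both thus passed the filter only through the IVF libraries. Myod1, a muscle transcription factor gene, was low, with 2.84 and 3.15 FPKM in SCNT, against 7.12 and 4.82 FPKM in IVF. With only 4 libraries such likeness is a description.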

How the data were processed

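RNA was measured in 2 SCNT and 2 IVF libraries, grouped by their titles. Amplified cDNA (SMARTer Ultra Low Input kit) from lysed embryos was sheared and made into NEBNext Ultra DNA libraries, per the labels' protocols; such amplification makes low genes noisy. The values deposited by the authors are taken as FPKM, 1 per symbol, since Cufflinks is among the tools and the values are not whole and never negative. The submitters' processing notes name the mm9 build, Cufflinks 2.2.1, TopHat2 2.0.14 and Bowtie2 2.1.0. The sources used here do not give annotation, strand or scaling. FPKM is relative, so a change in abundant genes shifts all others.

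Genes with a mean of at least 1 FPKM (11039) were tested with limma 3.58.1 (R 4.3.3) on log2(FPKM + 1), with group as the only term, a trended prior variance, two-sided tests and Benjamini-Hochberg adjustment over all tested genes at 0.05. The pseudocount of 1 understates changes of low genes. The fit was tested on simulated data. Near-identical transcripts were sought with BLAST+ 2.17.0 (at least 85% identity over 200 bases). The members and lists were chosen with earlier results of these data known. Named genes were the 7 members, up to 4 genes with the smallest p of each pathway list, and for the 2 members with the largest differences the 3 genes most alike in profile, without predicted genes and short RNAs; other genes are named as markers or overlapping loci. There were 13 alternatives: pseudocounts, filters, scalings, priors, a replicate block and each library left out.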

Additional observations from a re-analysis of the deposited data

How the results depend on the processing

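None of the 7 genes was called under any of the 13 alternatives with limma (12 for Amt, which a filter at a mean of 5 FPKM removes). Tdh kept a positive difference in all 13, between 0.56 and 0.92, and Gldc a negative one in all 13, between -1.09 and -0.54. Their unadjusted p was under 0.05 in 11 and 10 of the 13, and up to 0.105 and 0.0857 in the others. Gcsh ran from -0.64 to -0.26, Amt from -0.69 to -0.14, Mat2a from -0.22 to -0.13 and Gcat from 0.01 to 0.17. Dld, from -0.036 to 0.20, changed sign without SCNT library 1 (-0.036). The median of the 7 genes was -0.039 with the filter at 5, where Amt drops out, -0.18 with median-ratio scaling, -0.22 with short RNA genes left out, and -0.19 to -0.13 with a library left out. Genes called numbered 14; without a filter there were 0 by limma (1750 at an unadjusted p under 0.05), with short RNA genes left out 9, and with a library left out 36 to 43. Fitted with 3 libraries, the lone library of a group is assumed to vary like the others.

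In a limma fit with replicate number as a block, adjusted p was 0.119 for Tdh, 0.148 for Gldc and 0.153 for Gcsh, and 20 genes were called, none of them a member. Same-numbered libraries deviated together (r = 0.31 across 11039 genes), but with 2 pairs and no label for a shared day they share only a number.

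Among the other named genes, signs reversed when a library was left out for Shmt2 (from -0.17 to 0.60), Phgdh (-0.24 to 0.10), Lipt2 (-0.44 to 0.095), Lipt1 (-0.077 to 0.14), Mecr (-0.11 to 0.14), Tars (-0.025 to 0.66), Tars2 (-0.10 to 0.34), Tarsl2 (-0.27 to 0.14) and Dpy30 (-0.030 to 0.49). Mecr also reversed with median-ratio scaling (-0.0085) and with short RNA genes left out (-0.046), which reversed Lipt1 too (-0.021). For all of these the cause was not tested. The files hold no counts, so how far depth limits Amt and the other low genes cannot be given.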
